A study of Mus musculus with 13 samples.

Results

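The genes described here are 8 basic helix-loop-helix (bHLH) transcription factors, Neurog2, Atoh7, Neurod1, Neurod2, Neurod4, Olig1, Olig2 and Bhlhe22. They were chosen by symbol, with earlier results of these data known. All 8 were found among the 35734 genes of the deposited comparison table. Estimated counts and TPM (a level per length of transcript, scaled to the same total in every library) of each gene were compared between 4 control and 4 Ikzf1 RNA-seq libraries of mouse retina. Ikaros, the product of Ikzf1, is a transcription factor with zinc fingers.

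Proneural bHLH factors bind DNA as dimers with E proteins at E-box sites, written CANNTG, and drive progenitors out of the cell cycle into neuronal fates. HLH proteins of the Id family take the E proteins away. Hes and Hey repressors such as Hes1, which act downstream of Notch, hold progenitors back from differentiation. In the retina, Neurog2, Atoh7 and Olig2 mark progenitors near their last divisions, the Neurod genes act in the neurons made from them, and Bhlhe22 acts as a repressor in amacrine and cone bipolar cells.

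Both groups came from dissociated retinas of CD1 mice at postnatal day 0, were transfected by nucleofection, cultured for 9 h and sorted for GFP. The controls received GFP without Ikzf1 (400000 sorted cells per replicate) and the Ikzf1 libraries came from cells given Ikzf1 with GFP (300000 sorted cells per replicate). The labels name no deletion or other engineered allele in either group. The promoter driving Ikzf1 in these cells is not given in the sources used here. The labels call the replicates biological but name no animals or litters, so p-values measure the spread between these preparations.

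The libraries held 21.4 to 30.5 M estimated read pairs. Ikzf1 took 0.00723 to 0.0091% of the read pairs of a control library and 15.9 to 17.2% of those of an Ikzf1 library. Of the defining progenitor genes, Pax6 stood at 356 ± 6.58 CPM in control and 443 ± 11.4 CPM in Ikzf1 libraries (SD, n = 4 each). CPM are counts relative to a library size scaled by TMM, which allows for the reads that Ikzf1 itself takes up. Control replicate 1 stood apart for the genes described here. It was the highest control for all 7 of them that were tested, while 29.6% of all tested genes had their highest control value there.

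RefSeq promoter windows (build GRCm38.p6, 250 bases before to 50 after a start) were found for 6 of the 8 genes. Start regions are shown here so that those of 3 genes that fell, Atoh7, Neurod4 and Olig2, can be read beside that of Neurod2, which did not pass the test. The genes shown were picked with their results known, so no contrast between them is drawn. Neurod1, which did not pass either, has a stretch of 135 bases that is not shown and holds 1 CANNTG and 1 GGGAA. Each stretch runs 5′ to 3′ on the strand of its gene and ends before the first base of the deposited gene model. Capitals mark an E-box (CANNTG) or GGGAA, the core letters of Ikaros sites, on either strand. The stretches are chr10:63099535-63099650 on the plus strand for Atoh7, chr10:130280255-130280504 on the minus strand for Neurod4, chr16:91225300-91225456 on the plus strand for Olig2 and chr11:98329649-98329895 on the minus strand for Neurod2.
Atoh7: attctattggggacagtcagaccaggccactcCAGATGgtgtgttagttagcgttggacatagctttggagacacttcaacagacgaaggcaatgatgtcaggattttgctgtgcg
Neurod4: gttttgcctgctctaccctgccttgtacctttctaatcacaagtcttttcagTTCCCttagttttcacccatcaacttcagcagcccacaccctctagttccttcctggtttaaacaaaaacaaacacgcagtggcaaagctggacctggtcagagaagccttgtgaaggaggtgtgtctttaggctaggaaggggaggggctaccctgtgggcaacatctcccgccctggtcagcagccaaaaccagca
Olig2: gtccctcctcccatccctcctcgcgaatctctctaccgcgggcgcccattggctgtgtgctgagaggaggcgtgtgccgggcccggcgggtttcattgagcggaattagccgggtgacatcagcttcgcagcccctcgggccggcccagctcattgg
Neurod2: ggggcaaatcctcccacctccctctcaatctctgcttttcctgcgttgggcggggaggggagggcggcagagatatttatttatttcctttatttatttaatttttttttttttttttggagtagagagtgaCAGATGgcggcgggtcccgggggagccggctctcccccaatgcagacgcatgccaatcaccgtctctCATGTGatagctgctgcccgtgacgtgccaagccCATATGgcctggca

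The whole window of 300 bases held 3 CANNTG in Atoh7, 3 in Neurod2 and 1 in Neurod1, and 0 in Neurog2 and in Olig2. Of the 2 Neurod4 windows the first held 0 and the second held 1, of the form CAGCTG. Of 32851 windows of that length, 72.3% held CANNTG and 16.3% held CAGCTG. The form CAGATG was found in the Atoh7 and Neurod2 windows and in 17.2% of all windows. GGGAA or its reverse complement was found 2 times in Neurog2 and in Atoh7, 1 time in Neurod1, in Olig2 and in each Neurod4 window, and 0 times in Neurod2, against 62.7% of all windows with at least 1. A match is a string of letters and not a measured binding site.

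Of the 8 genes, 7 passed the filter on low counts and Olig1 did not. Atoh7, Neurod4 and Olig2 fell in the Ikzf1 libraries, Bhlhe22 rose, and Neurog2, Neurod1 and Neurod2 did not pass an edgeR adjusted p of 0.05. The groups did not overlap for 5 of the 7, which 53.1% of all tested genes showed. The 4 calls among 7 stand beside 59.1% called among all 15656 genes tested, the 3 falls beside 29.8% called lower and the 1 rise beside 29.3% called higher. All 4 called genes moved by more than 0.5 on the log2 scale, which 14.8% of tested genes did downward and 11.9% upward. The median log2 fold change over the 7 was -0.45, and over all tested genes 0.00. With library totals in place of TMM, which moved the median of all genes to -0.21, 5 of the 7 were called lower and 1 higher, and all tested genes split into 2362 higher and 7748 lower in place of 4584 and 4668.

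**Figure D1:**
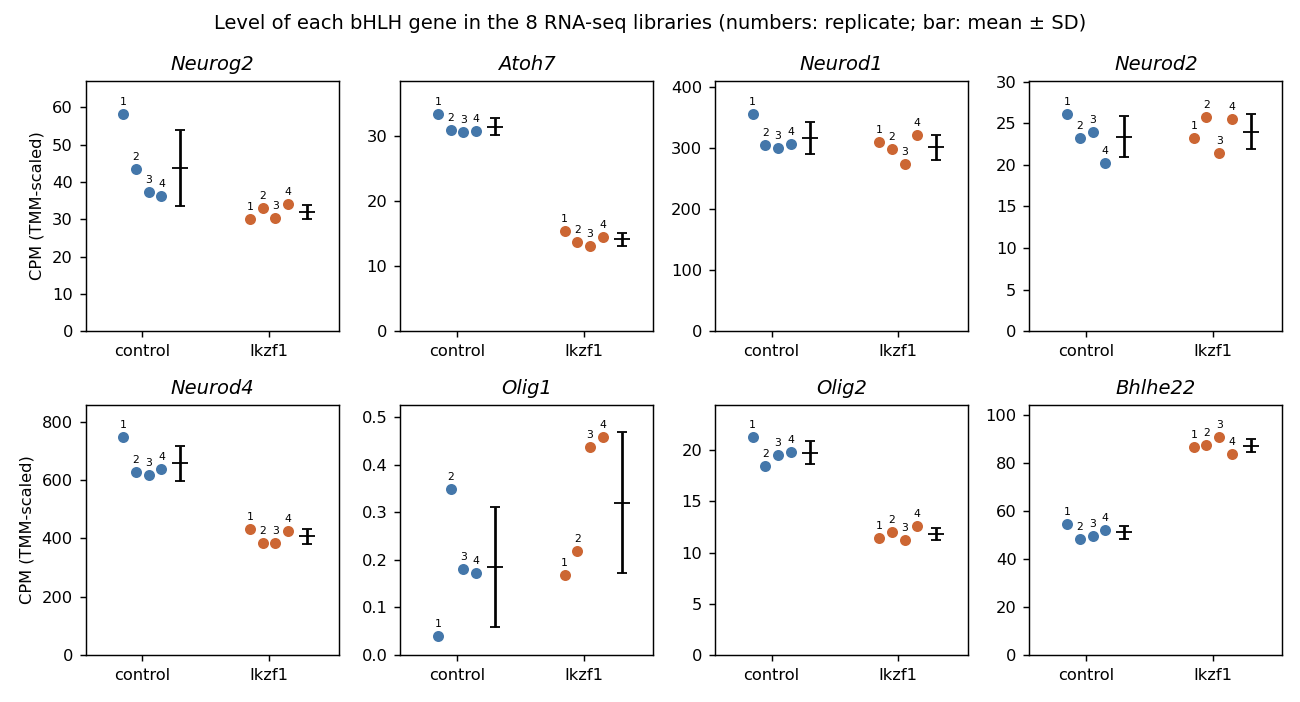
CPM of each of the 8 bHLH genes (y axis, from 0, TMM-scaled) in the 4 control libraries (blue) and the 4 Ikzf1 libraries (orange). Small numbers give the replicate and the black bars the mean ± SD. The 2 groups do not overlap for Neurog2, Atoh7, Neurod4, Olig2 and Bhlhe22, while those of Neurod1, Neurod2 and Olig1 do.

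Among the factors of progenitors, Atoh7, which is required for the genesis of retinal ganglion cells, had the largest fall of the 7. Atoh7 (ENSMUSG00000036816, GRCm38 chr10:63099651-63101279, plus strand) stood at 33.5, 30.9, 30.7 and 30.8 CPM in control replicates 1 to 4 and at 15.4, 13.7, 13.1 and 14.5 CPM in Ikzf1 replicates 1 to 4. Every Ikzf1 library lay below every control, at 45.03% of the control mean. Atoh7 thus fell, by an edgeR estimate of -1.15 ± 0.07 (log2 fold change ± SE, adjusted p = 7.67e-14). At least 99.1% of its estimated counts in each library came from 1 of its 2 transcripts.

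Neurog2, a proneural factor that starts neuronal differentiation in dividing progenitors, lay at the edge of the test. Neurog2 (ENSMUSG00000027967, GRCm38 chr3:127633135-127635631, plus strand) stood at 58.3, 43.4, 37.3 and 36.2 CPM in the controls and at 30.1, 33.0, 30.4 and 34.1 CPM in the Ikzf1 libraries. The Ikzf1 libraries were close together and all below the controls, whose highest library, replicate 1, was far above the rest. The edgeR estimate was -0.45 ± 0.16 (log2 fold change ± SE, adjusted p = 0.0501). Without control replicate 1 the difference was smaller, -0.28 on the log2 scale, and past the threshold (edgeR adjusted p = 0.00102). Over 18 alternatives the value lay between -0.66 and -0.28, the adjusted p between 0.00102 and 0.121, and 10 passed. The authors' deposited table, where 41.8% of genes with an adjusted p were under 0.05, gives a log2 fold change of -0.43 with an adjusted p of 0.00241.

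Olig2 in the early postnatal retina marks progenitors that divide to give pairs of neurons, and elsewhere in the nervous system it directs the oligodendrocyte lineage. Olig2 (ENSMUSG00000039830, GRCm38 chr16:91225457-91228677, plus strand) stood at 21.3, 18.5, 19.5 and 19.8 CPM in the controls and at 11.5, 11.98, 11.3 and 12.6 CPM in the Ikzf1 libraries. The lowest control lay well above the highest Ikzf1 library. The edgeR estimate was -0.74 ± 0.08 (log2 fold change ± SE, adjusted p = 5.83e-09).

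Olig1 (ENSMUSG00000046160, GRCm38 chr16:91269772-91271933, plus strand), the partner of Olig2 in oligodendrocyte precursors, lies 41095 bases beyond the end of Olig2 on the same strand. It had 1, 8, 5 and 5 reads in the controls and 4, 5, 11 and 13 reads in the Ikzf1 libraries. The sums were 19 reads (95% exact Poisson interval 11.4 to 29.7) and 33 reads (22.7 to 46.3), and the intervals overlap. These intervals cover counting error only, and no difference in Olig1 was detectable at this depth. The authors' deposited table gives a log2 fold change of 0.40 with an adjusted p of 0.443. Defining genes of the oligodendrocyte lineage were near 0, with means of 0.302 for Sox10, 0.460 for Mog and 0.669 for Gpr17 in normalised counts of the authors' deposited table. Of the 8 oligodendrocyte lineage markers, 4 were tested, 1 rose and 2 fell, with log2 fold changes of 0.49 for Mbp and -1.37 for Cspg4 (edgeR adjusted p = 1.58e-06 and 0.00446). Cspg4 did not pass with a length offset (-0.57, edgeR adjusted p = 0.369). Pdgfra, the receptor of oligodendrocyte precursors, stood at 0.23 ± 0.19 (log2 fold change ± SE, edgeR adjusted p = 0.31). The summed TPM of the list was 12.95 to 14.8 in control and 13 to 16.5 in Ikzf1 libraries. The second range is lowered by the share of the total that Ikzf1 itself takes (180317 ± 6775 TPM, SD, n = 4). The overlap of the ranges therefore does not show equal levels.

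Bhlhe22, needed for GABAergic amacrine cells and a class of cone bipolar cells, was the gene of the 7 that rose. Bhlhe22 (ENSMUSG00000025128, GRCm38 chr3:18054174-18057517, plus strand) stood at 54.5, 48.2, 49.5 and 52.3 CPM in the controls and at 86.7, 87.7, 90.8 and 84.0 CPM in the Ikzf1 libraries. All Ikzf1 libraries lay well above all controls, at 171% of the control mean. In edgeR the rise was 0.77 ± 0.05 (log2 fold change ± SE, adjusted p = 1.86e-13), and it stayed above 0 and past the threshold in all 18 alternatives, between 0.54 and 0.80.

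Of the 3 Neurod genes, only Neurod4 passed the test. Neurod4, which acts with other bHLH factors in amacrine and bipolar fates, fell. Neurod4 (ENSMUSG00000048015, GRCm38 chr10:130268152-130280240, minus strand) stood at 746.5, 627, 617 and 639 CPM in the controls and at 433, 385, 385 and 426 CPM in the Ikzf1 libraries. All controls were above all Ikzf1 libraries, and control replicate 1 was the highest. The edgeR estimate was -0.69 ± 0.06 (log2 fold change ± SE, adjusted p = 1.17e-09).

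Neurod1, a factor of photoreceptors and amacrine cells, did not pass the test. Neurod1 (ENSMUSG00000034701, GRCm38 chr2:79452521-79456751, minus strand) stood at 357, 305, 301 and 307.5 CPM in the controls and at 311, 298, 275 and 321.5 CPM in the Ikzf1 libraries. The groups overlap, and control replicate 1 again stood above the other controls. The edgeR estimate was -0.08 ± 0.06 (log2 fold change ± SE, adjusted p = 0.253). With library totals in place of TMM it was -0.29 and past the threshold (edgeR adjusted p = 0.000256), a move of the size that all genes made under that scaling. Neurod1 lies inside the model of Cerkl on the same strand, so reads of the 2 genes can be hard to separate. Cerkl stood at 11.3 ± 0.332 CPM in control and 8.32 ± 1.30 CPM in Ikzf1 libraries (SD, n = 4 each).

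Neurod2, which is found in a subset of amacrine cells, also did not pass. Neurod2 (ENSMUSG00000038255, GRCm38 chr11:98325415-98329648, minus strand) stood at 26.2, 23.2, 24.0 and 20.2 CPM in the controls and at 23.2, 25.8, 21.4 and 25.5 CPM in the Ikzf1 libraries. The groups overlap over nearly their whole range. The edgeR estimate was 0.04 ± 0.08 (log2 fold change ± SE, adjusted p = 0.698), and its sign turned with library totals in place of TMM (-0.17), on the TPM scale (-0.17) and without control replicate 4 (-0.028).

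**Figure D2:**
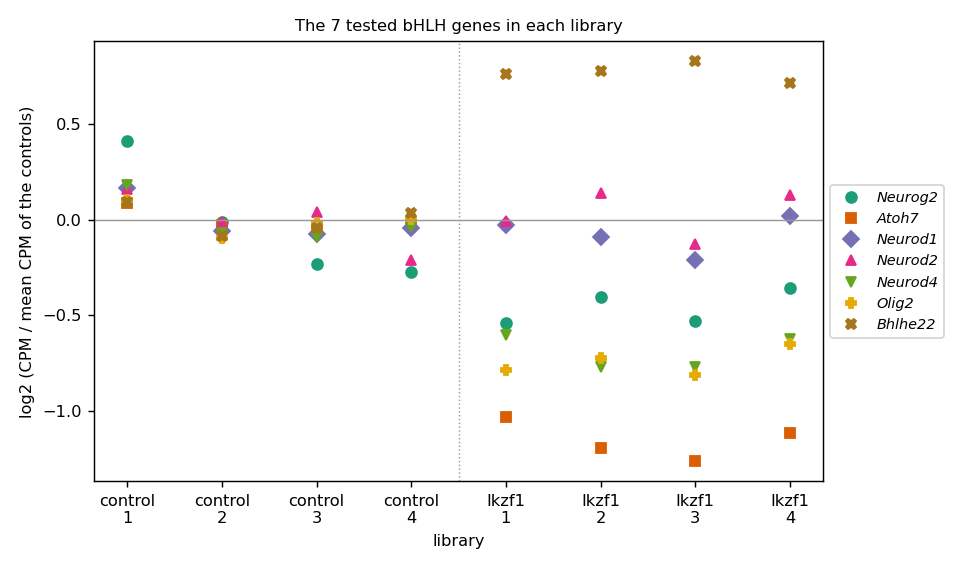
Log2 of each library's CPM over the mean of the 4 controls (y axis) for the 7 tested genes, 1 symbol per gene, by library (x axis, a dotted line between the groups). All 7 symbols of control replicate 1 lie above 0, and in the Ikzf1 libraries Bhlhe22 lies alone at the top, with Neurod1 and Neurod2 near 0 and Atoh7 lowest.

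The order of the 8 genes by level also differed between the groups. In TPM, the controls ranked Neurod4 (392 ± 32.7), Neurod1 (234.5 ± 17.6), Atoh7 (40.7 ± 1.41), Neurog2 (40.2 ± 8.99), Bhlhe22 (30.5 ± 1.53), Olig2 (15.8 ± 0.822), Neurod2 (14.9 ± 1.49) and Olig1 (0.176 ± 0.12) (SD, n = 4 each). Atoh7 and Neurog2 overlap in the controls, as do Olig2 and Neurod2. The Ikzf1 libraries ranked Neurod4 (208.5 ± 14.3), Neurod1 (191 ± 14.4), Bhlhe22 (44.7 ± 1.05), Neurog2 (25.2 ± 1.80), Atoh7 (15.9 ± 1.10), Neurod2 (13.1 ± 1.24), Olig2 (8.12 ± 0.486) and Olig1 (0.261 ± 0.121) (SD, n = 4 each). There, the ranges of Neurod4 and Neurod1 overlap. A group of 4 libraries cannot give a two-sided exact permutation p under 0.125 for a pair of neighbours, and Atoh7 against Neurog2 in the controls gave an exact p of 0.875. TPM of the Ikzf1 libraries include Ikzf1 itself at 180317 ± 6775 (SD, n = 4), which lowers every other gene. Without Ikzf1 in the total, the Ikzf1 libraries averaged 254 TPM for Neurod4, 233 for Neurod1 and 54.5 for Bhlhe22, with the order kept since it scales every gene alike.

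**Figure D3:**
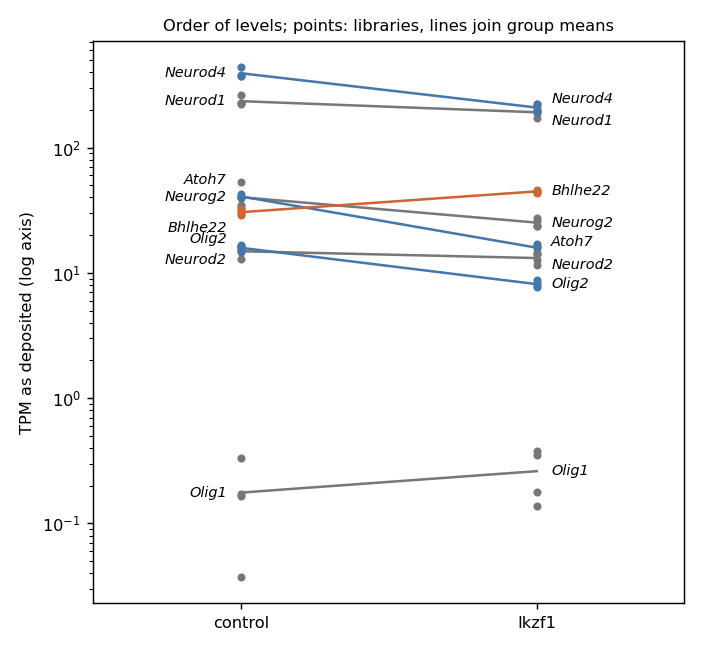
TPM of the 8 genes (log axis) in the control and the Ikzf1 libraries. Points are libraries and lines join group means, blue for the genes called lower, orange for Bhlhe22, called higher, and grey for those that did not pass or were not tested. Bhlhe22 goes from the fifth to the third place and Atoh7 from the third to the fifth.

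Ratios of 2 genes in the same library do not depend on how libraries are scaled. Neurod4 over Neurod1 in TPM was 1.69, 1.66, 1.66 and 1.68 in control and 1.12, 1.04, 1.13 and 1.07 in Ikzf1 libraries. This ratio varied little between replicates, and the groups were far apart. Bhlhe22 over Neurod1 was 0.123, 0.128, 0.133 and 0.137 in control and 0.225, 0.237, 0.267 and 0.211 in Ikzf1 libraries, again with no overlap. Atoh7 over Neurog2 was 1.04 ± 0.177 in control and 0.633 ± 0.0565 in Ikzf1 libraries (SD, n = 4 each), and Neurod2 over Neurod1 overlapped, at 0.0635 ± 0.00511 and 0.0687 ± 0.00427 (SD, n = 4 each). No test was run on these ratios. Neurod4 made up 51.0% ± 0.329 of the summed TPM of the 8 genes in control and 41.1% ± 1.03 in Ikzf1 libraries (SD, n = 4 each).

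Of 19 genes listed as other bHLH factors, 10 were tested, 5 fell and 2 rose, with a median log2 fold change of -0.39. Beside the counts of this and every other list under TMM, 29.8% of all 15656 tested genes were called lower and 29.3% higher. Splits given with library totals stand beside 7748 of the 15656 genes lower and 2362 higher under that scaling. Neurog1, the closest relative of Neurog2, fell by 1.36 on the log2 scale (edgeR adjusted p = 8.11e-05) from a low level of 2.06 ± 0.383 CPM (SD, n = 4). Nhlh2, a bHLH factor of young neurons, fell by 1.08 (edgeR adjusted p = 5.98e-14) and Atoh8 fell by 0.89 (edgeR adjusted p = 0.000738). Bhlhb9 (-0.22, edgeR adjusted p = 0.00198) is among the 5 that fell, though its groups overlap. Whether it is a bHLH factor beyond its name was not checked. Tal1 and Twist1, bHLH factors of blood and mesenchyme, were the 2 that rose, both from under 1 CPM. Twist1 did not pass without Ikzf1 replicate 3 (1.39, edgeR adjusted p = 0.0506). Olig3 and Neurog3 had a mean under 5 normalised counts and were not tested.

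None of the 3 E proteins, the dimer partners, was called lower. Tcf12, the E protein with the highest level here, went from 382 ± 9.84 to 499 ± 8.67 CPM (SD, n = 4 each), a rise of 0.39 on the log2 scale (edgeR adjusted p = 4.16e-09). Tcf4 rose by 0.18 (edgeR adjusted p = 0.00134), but did not pass with a length offset (0.075, edgeR adjusted p = 0.319) and turned to -0.035 with library totals in place of TMM. Tcf3 did not pass at 0.17 (edgeR adjusted p = 0.0612) and turned to -0.045 with library totals.

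Of 14 genes listed as bHLH and HLH inhibitors, all tested, 6 fell and 2 rose, with a median of -0.14. With library totals in place of TMM the split was 10 lower and 2 higher. The Id genes moved in both directions. Id3 stood at 53.5, 53.5, 46.9 and 49.4 CPM in the controls and at 14.2, 16.9, 15.5 and 17.3 CPM in the Ikzf1 libraries, and fell by 1.67 on the log2 scale (edgeR adjusted p = 1.14e-17). Id4 fell by 0.86 (edgeR adjusted p = 2.1e-09) and Id2 rose by 0.57 (edgeR adjusted p = 3.1e-07). Id1 fell by 0.29 (edgeR adjusted p = 0.0336) but its 2 groups overlap, and it did not pass without control replicate 1, control replicate 2 or Ikzf1 replicate 1 (edgeR adjusted p = 0.0788, 0.138 and 0.143), with a length offset (edgeR adjusted p = 0.0875) or with a replicate block (edgeR adjusted p = 0.0506). Hes1, the Notch effector of progenitors, fell from 27.5 ± 2.37 to 12.3 ± 0.636 CPM (SD, n = 4 each), which is -1.16 on the log2 scale (edgeR adjusted p = 5.05e-13). Hey1 rose by 0.80 (edgeR adjusted p = 5.02e-10). Hes5 (-0.10, edgeR adjusted p = 0.503) and Hes6 (-0.043, edgeR adjusted p = 0.487) did not pass.

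**Figure D4:**
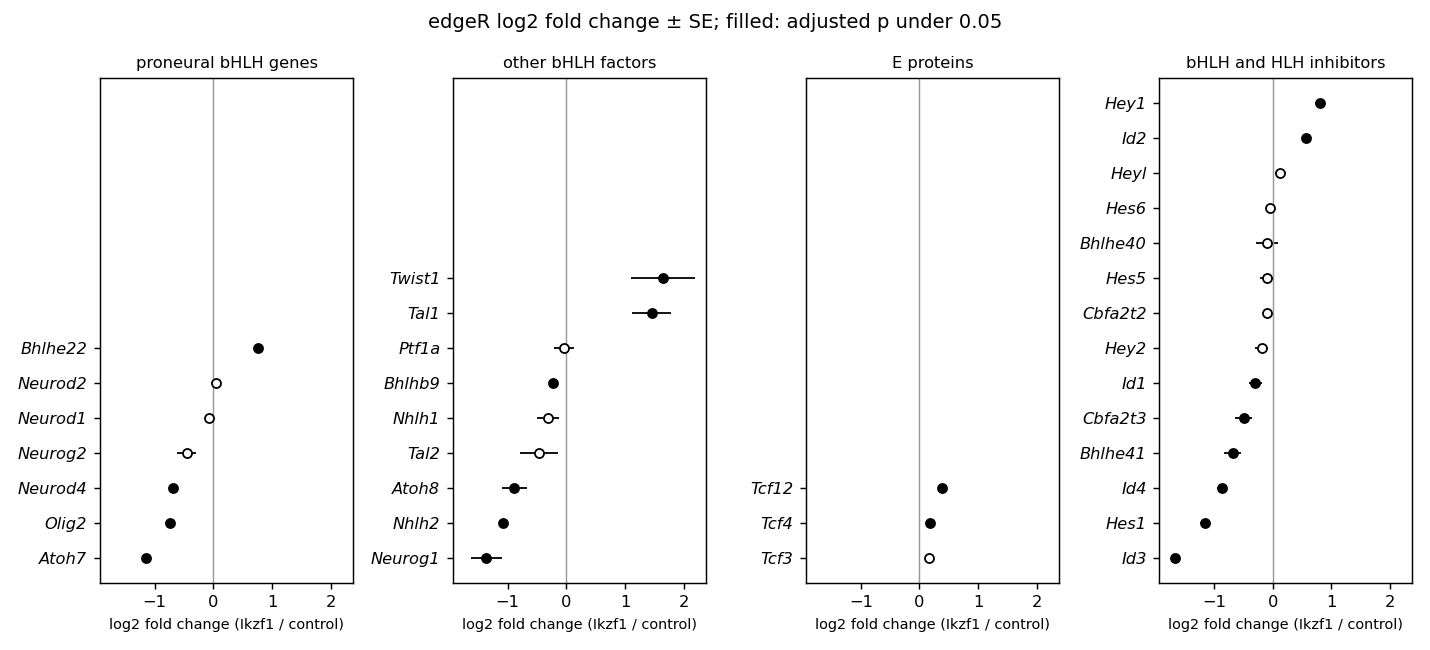
Log2 fold change of Ikzf1 over control (x axis, edgeR estimate ± SE) for the tested proneural genes, genes listed as other bHLH factors (9 of the 10 tested), E proteins and inhibitors (1 row per gene, ordered by value). Filled points have an adjusted p under 0.05. Atoh7, Neurog1 and Nhlh2 lie near or below -1, Tcf12 to the right of 0, and the inhibitors range from Id3 at -1.67 to Hey1 at 0.80.

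Of 16 listed regulators upstream of these factors, all tested, 12 fell and 2 rose, with a median of -0.41. This list shares Prdm1, Crx and Otx2 with the photoreceptor precursor markers below, so the counts of these lists are not separate. Notch1 fell by 0.81 on the log2 scale (edgeR adjusted p = 2.19e-14), and Prdm1, Crx and Otx2, which act in photoreceptor precursors, fell by 1.23, 1.05 and 0.41 on the log2 scale (edgeR adjusted p = 2.08e-12, 6.06e-13 and 2.81e-08). Sox4 and Pax6 rose by 0.52 and 0.32 (edgeR adjusted p = 4.78e-11 and 1.4e-07). Pax6 did not pass on the TPM scale, at 0.016.

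Genes known as targets of proneural factors were mixed. Of 34 listed, 32 were tested, with 9 higher, 13 lower, and a median of -0.06. With library totals in place of TMM the split was 7 higher and 20 lower. The Notch ligands went in different directions. Dll3 stood at 28.6, 23.3, 21.6 and 22.0 CPM in the controls and at 12.2, 10.97, 10.3 and 10.8 CPM in the Ikzf1 libraries, with no overlap, and fell by 1.10 on the log2 scale (edgeR adjusted p = 2.58e-11). Dll1 and Dll4 rose by 0.42 and 0.82 (edgeR adjusted p = 6.98e-08 and 2.9e-11), and Mfng, a modifier of Notch, rose by 1.06 (edgeR adjusted p = 2.25e-09). Rnd3 and Btg2, linked to migration and cell cycle exit, fell by 0.93 and 0.84 (edgeR adjusted p = 3.09e-16 and 8.42e-14). Of 20 genes of neurogenic progenitors, a list that shares 4 genes with the 8 (Atoh7, Neurog2, Olig2 and Neurod4), 12 fell and 5 rose, and Gadd45a rose by 1.41 (edgeR adjusted p = 9.39e-18). The progenitor list also shares Dll1, Dll3, Dll4, Btg2 and Hes6, among others, with the list of targets.

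The sorted cells hold several retinal cell types, and in bulk samples fewer cells of a type cannot be told apart from less RNA per cell. Markers of these types moved beside the bHLH genes. TPM of the Ikzf1 libraries are scaled to a total that includes Ikzf1 itself at 180317 ± 6775 (SD, n = 4). This lowers every summed TPM of those libraries, so part of each lower sum comes from the scaling. Of 9 photoreceptor precursor markers, 8 fell and 0 rose, with a median of -0.58 and a summed TPM of 656 to 778 in control and 352 to 404 in Ikzf1 libraries. Of 12 retinal progenitor markers, 6 fell and 3 rose, with 1446 to 1530 TPM in control and 1100 to 1160 in Ikzf1 libraries. Of 7 ganglion cell markers tested, 4 rose and 3 fell, and Pou4f2, a target of Atoh7, had a mean of 6.12 normalised counts and was not tested. Of 8 amacrine markers 4 fell and 1 rose, of 5 bipolar markers 2 fell and 2 rose, of 4 horizontal markers 2 fell and of 6 Müller glia markers 3 fell and 1 rose. With library totals in place of TMM the split became 9 lower and 1 higher for progenitor, 2 and 1 for bipolar and 4 and 0 for Müller glia markers. Under that scaling, 7748 of all 15656 tested genes were called lower and 2362 higher. Sox9, a gene of progenitors and Müller glia, fell by 1.95 on the log2 scale (edgeR adjusted p = 3.01e-20). The part of these shifts in the fall of Atoh7, Neurod4 and Olig2 or the rise of Bhlhe22 was not tested.

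**Figure D5:**
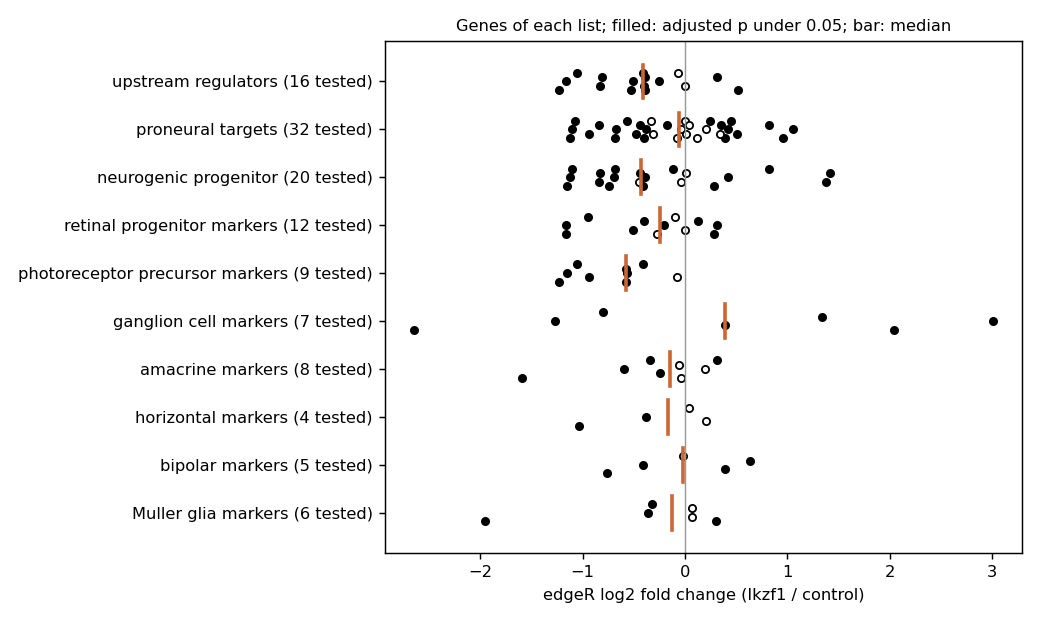
Log2 fold change of Ikzf1 over control (x axis, edgeR) for each tested gene of 10 lists (rows, with the number tested). Filled points have an adjusted p under 0.05 and the orange bar is the median. The photoreceptor precursor list lies below 0 in all its 9 genes, and the ganglion cell list spreads from -2.64 to 3.01.

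Markers of cells outside the neural retina were read as well. Here too, every TPM of the Ikzf1 libraries is lowered by the share that Ikzf1 itself takes. Of 4 endothelial markers tested 2 fell, Tek and Kdr, and the summed TPM was 135 to 157 in control and 59.9 to 70.7 in Ikzf1 libraries. Kdr made up nearly all of that sum, at 143.6 ± 10.8 and 60.9 ± 4.96 TPM (SD, n = 4 each). Pecam1 did not pass (-0.085, edgeR adjusted p = 0.762), nor did Cldn5, and Cdh5 had a mean of 1.78 normalised counts. Of 2 microglia markers tested 1 fell, Tmem119 (-1.05, edgeR adjusted p = 0.0330), which did not pass with DESeq2 (adjusted p = 0.0671), with a replicate block (edgeR adjusted p = 0.0644) or without control replicate 3, control replicate 4 or any 1 of the Ikzf1 libraries (edgeR adjusted p of 0.0515 to 0.158). The summed TPM of the microglia markers was 1.62 to 2.62 and 0.420 to 1.14, with P2ry12 and Aif1 at a mean under 5 normalised counts. Pigment epithelium markers summed to 4.96 to 6.39 TPM and 2.36 to 3.25 TPM, with Rpe65 at 0, and pericyte markers to 1.39 to 2.16 and 0.608 to 0.912 TPM. Astrocyte markers summed to 99.3 to 107 and 109 to 118 TPM, nearly all of it Slc1a3, which is also a Müller glia marker and rose by 0.31 (edgeR adjusted p = 2.64e-06). Pax2 fell by 1.20 (edgeR adjusted p = 0.000291), and the other 2 of the 4 astrocyte markers tested did not pass. With library totals in place of TMM, 0 of the 4 were higher and 2 were lower, and with a length offset 2 were higher and 1 was lower. Of all 15656 tested genes, 2362 were higher and 7748 lower with library totals, and 3895 and 3985 with a length offset. Their part in the bHLH results was not tested.

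For the called gene that rose most and the one that fell most, the genes with the most similar pattern over the 8 libraries were listed. Nearest to Bhlhe22 by Pearson r of log2 CPM were Kctd8 (r = 0.998), Npy (r = 0.998) and Fam189a1 (r = 0.997), and 1325 of 11904 genes had an r over 0.95. Nearest to Atoh7 were Mat2a (r = 0.998), Trappc11 (r = 0.998) and Pidd1 (r = 0.998), with 1627 genes over 0.95. The 8 libraries fall into 2 groups that these genes separate, so the correlation is a description of that separation. Apart from Cerkl, no gene of the deposited table within 50000 bases overlapped one of the 8. Among the other genes in that range, the one nearest to Neurog2, Zgrf1, rose by 0.21 on the log2 scale (edgeR adjusted p = 0.00962). Pbld2, which lies 40838 bases from Atoh7, fell by 0.79 (edgeR adjusted p = 0.00102), and the nearer Pbld1, at 21689 bases, did not pass (-0.60, edgeR adjusted p = 0.0517). Tespa1, 42630 bases from Neurod4, fell by 1.37 (edgeR adjusted p = 0.0371) from under 1 CPM.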

How the data were processed

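RNA-seq libraries (total RNA depleted of ribosomal RNA, stranded kit, per the labels' protocols) were compared, 4 control against 4 Ikzf1. The authors made estimated counts per transcript with Salmon, per the submitters' processing notes, and the deposited files also give TPM and effective length, per the file headers. The authors' deposited table gives, per the file headers, a mean normalised signal per gene, log2 fold changes with standard errors, a Wald score and p-values. It was made with DESeq2, per the labels. Versions and the use of strand in counting are not given in the sources used here. CUT&RUN peak lists were not used here, since the genes' coordinates are on another build.

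Transcripts were joined to genes through the mean of each gene in the authors' table, which the summed counts, library factors and lengths of its transcripts must give within a relative tolerance of 1e-09. Among the 16815 genes whose mean reached 5, 16810 (99.97%) were joined, holding 99.9% or more of the reads. After the means were moved, 18 (0.107%) still matched. The same join on simulated data placed 99.98% of 16731 genes, 100% of them on their true transcripts. On 11897 joined genes edgeR's and the authors' fold changes had a Pearson r of 0.988 across genes.

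Estimated counts were summed per gene and rounded, filtered with filterByExpr, scaled by TMM and tested two-sided with edgeR 4.0.16 (quasi-likelihood F test, robust) in R 4.3.3, p-values being adjusted by Benjamini-Hochberg across the whole set of tested genes, with 0.05 as the threshold. The standard error is the absolute log2 fold change over the square root of F. Alternatives used DESeq2 1.42.0 and limma 3.58.1 on log2(TPM + 1) or log2(TPM + 0.1), other scalings and filters, a length offset, a replicate block and each library left out. On counts simulated with few changes (195 of 15300 tested genes), edgeR recovered 88.5% of changes of 1 and 69.7% of changes of 0.5 (log2). Of its 163 calls 5.52% were false, and of 175 DESeq2 calls 9.71%. In the data 59.1% of tested genes were called, so these shares need not hold there. No pair of replicates agreed within sampling noise.

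The 8 genes and the lists were chosen with earlier results of these data known. Outside the 8 genes, the text names a fixed set of known regulators, up to 3 genes higher and 3 lower with the smallest p in each list, genes overlapping one of the 8, and the 3 most similar patterns. Pou4f2, Pbld2, Zgrf1, Olig3, Neurog3, Atoh8, Mog, Gpr17, P2ry12, Aif1 and Rpe65 fall outside this rule and were named after their values were seen. The same holds for Pbld1, Tespa1, Pecam1, Cldn5, Cdh5 and Bhlhb9. A few genes that the rule names are not reported here.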

Additional observations from a re-analysis of the deposited data

Results flagged for a closer look

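Of 154 groups of 4 libraries examined, over the genes named in the text, 12 held 1 library whose gap to the nearest other was, relative to the whole range, beyond Dixon's limit for 4 values. Chance gives about 1 in 20. Several of the 12 concern control replicate 1, where Atoh7 stood at 33.5 CPM and the other controls at 30.7 to 30.9, Neurod1 at 357 against 301 to 307.5, Prdm1 at 218 against 182 to 186 and Sox4 at 544 against 495 to 499. Atoh7 and Prdm1 fell, Sox4 rose and Neurod1 did not pass the test between the groups. Other control libraries stood apart in Clu (82.2 CPM in replicate 4) and Tal1 (0.696 CPM in replicate 2), and Tek was lowest in control replicate 2 (0.609 CPM). Among the Ikzf1 libraries, replicate 4 was highest for Prdm1 (92.0 CPM) and Prox1 (104 CPM) and lowest for Rlbp1 (8.81 CPM), replicate 3 was highest for Clu (60.3 CPM) and replicate 1 for Rnd3 (137 CPM).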

How the results depend on the processing

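Atoh7, Neurod4, Olig2 and Bhlhe22 kept their direction and their call in all 18 alternatives, with log2 fold changes of -1.36 to -1.11, -0.91 to -0.62, -0.95 to -0.71 and 0.54 to 0.80. The number of the 8 genes called lower was 5 with library totals in place of TMM and 5 on both TPM scales, and 3 to 4 when 1 library was left out. Of all 15656 tested genes, 7748 were called lower and 2362 higher with library totals. On log2(TPM + 1) and log2(TPM + 0.1), 7021 were lower on each, and 1866 and 1871 were higher. Neurog2 passed with DESeq2 (-0.45), DESeq2 size factors (-0.45), library totals (-0.66), Ikzf1 reads left out (-0.45), a length offset (-0.45) and log2(TPM + 1) or log2(TPM + 0.1) (-0.63 and -0.65), and its value lay between -0.54 and -0.28 when 1 library was left out. Neurod1 passed with library totals (-0.29) and on the TPM scales (-0.29 and -0.30, pseudocounts 1 and 0.1), and lay between -0.11 and -0.02 when 1 library was left out. Neurod2 turned sign with library totals (-0.17), on the TPM scales (-0.17 and -0.18) and without control replicate 4 (-0.028; range when 1 library was left out -0.028 to 0.097). Why these values moved was not tested, beyond the shift of all genes under library totals (median -0.21) and on the TPM scales (-0.19 and -0.22). Among other genes the sign turned with library totals, log2(TPM + 1) and log2(TPM + 0.1), in that order, for Mki67 (-0.082, -0.12 and -0.12), Tcf3 (-0.045, -0.088 and -0.089) and Tcf4 (-0.035, -0.15 and -0.15), on the TPM scales for Pdgfra (-0.045 and -0.084), and without control replicate 1 for Hes6 (0.00387, range when 1 library was left out -0.069 to 0.00387). Without Ikzf1 in the total, TPM of the Ikzf1 libraries were 30.7 for Neurog2, 19.4 for Atoh7, 233 for Neurod1, 16.01 for Neurod2, 254 for Neurod4, 9.91 for Olig2 and 54.5 for Bhlhe22. Microglia markers called were 0 with DESeq2 and with the replicate block, and 0 to 1 when 1 library was left out. Pericyte markers called were 0 to 2 when 1 library was left out. The replicate block called 8923 genes in place of 9252. Libraries of the same number did not visibly deviate together (correlations of deviations from -0.0511 to 0.00515). That cannot show whether the numbers pair the preparations. Leaving out 1 library gave 8658 to 9060 called genes, and the length offset 7880. Reads of Olig1 were too few for a test.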
